A study of Mus musculus with 12 samples.

Results

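The genes described here code for the proteins of the cytosolic ribosome in mouse soleus, a slow hind limb muscle. They were taken by symbol: protein-coding genes named Rpl or Rps followed by a digit, with Rplp0, Rplp1, Rplp2 and Rpsa, and without the S6 kinases and symbols that contain "-ps". The rule found 85 of the 28997 genes of the tables. Of these, 77 are core ribosomal proteins, 46 of the large and 31 of the small subunit. Another 7 are paralogs of core proteins (Rpl3l, Rpl7l1, Rpl22l1, Rpl36al, Rpl39l, Rps27l and Rps27rt), and Rps19bp1 codes for a protein that binds RPS19 and is no ribosomal protein itself.

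RNA of the soleus was sequenced from 12 mice, 3 in each of 4 groups. The groups were Nox1 conditional knockout mice on a high-fat diet, Nox1 conditional knockout mice on chow, wild-type mice on a high-fat diet and wild-type mice on chow, with the diets given for 8 weeks. All 4 groups carried Cre under the Cdh5 promoter, which is active in endothelial cells, so the knockout is aimed at those cells and not at muscle fibres. The deposited comparisons name their groups G1 to G4, and nothing in the labels says which genotype or diet each code stands for, so no difference below is assigned to either. Each comparison holds a value per gene and none per mouse. Group levels are therefore estimates rebuilt from the total of each gene and its fold changes, and no SD between mice can be given. An implied standard error (SE) of each log2 fold change is given instead, derived from that value and its p-value. It does not measure the spread within a group.

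Ribosomal proteins surround the ribosomal RNAs of the large and small subunits, and cells make them in matched amounts, because surplus protein that finds no ribosome is degraded. Their mRNAs begin with a run of pyrimidines, the 5′ terminal oligopyrimidine or TOP sequence, through which the mTORC1 kinase pathway sets how much of the message is translated. Most of these genes also have processed copies elsewhere in the genome, made by reverse transcription of the spliced mRNA, and skeletal muscle is known for a paralog of its own, Rpl3l.

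The copies bear on every value below, because reads that fit a gene and its copy equally well have to be divided between them. A copy was counted where a transcript of another locus matched with at least 90% identity over at least 50% of the shorter transcript. Such copies were found for 79 of the 85 genes, 846 copies in all without Rps27rt. With Rps27rt counted, 167 copies had a total of at least 100 reads over the 12 libraries. Setting each gene beside its most read copy gave 75 pairs that could be examined, and in 63 of them the whole coding sequence aligned. In 20 of these 63 pairs the coding sequences held no mismatch, in 12 they held 1, in 22 they held 2 to 5 and in 9 more than 5. The pairs of Rpl12 with Gm10275, of Rpl10 with Rpl10-ps3 and of Rps27 with Rps27rt are among those with no mismatch. The next 3 pairs are shown because their genes gave some of the lowest counts of the set while their copies were well read. Each line gives 60 bases of coding sequence 5′ to 3′ from GENCODE M21 transcripts (GRCm38), the capital marks the base that differs, and positions count from 1 at the start of the transcript.
Rpl35: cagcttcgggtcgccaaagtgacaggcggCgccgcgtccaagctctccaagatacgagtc
Gm2000: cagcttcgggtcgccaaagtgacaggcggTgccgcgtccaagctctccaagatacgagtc
Rpl9: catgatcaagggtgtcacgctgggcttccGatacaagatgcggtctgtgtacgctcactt
Rpl9-ps6: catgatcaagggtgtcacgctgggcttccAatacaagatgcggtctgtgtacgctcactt
Rps7: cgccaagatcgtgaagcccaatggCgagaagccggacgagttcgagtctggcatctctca
Gm9493: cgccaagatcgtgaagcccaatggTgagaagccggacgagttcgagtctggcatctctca

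Rpl35 lies on the minus strand at chr2:39001580-39005624 and its copy Gm2000 on the plus strand at chr1:156366040-156366484, with the substitution C655T. Rpl9 lies on the minus strand at chr5:65388364-65391444 and Rpl9-ps6 on the minus strand at chr19:32465865-32466578, with G336A. Rps7 lies on the minus strand at chr12:28630854-28635953 and Gm9493 on the plus strand at chr19:23619749-23620319, with C146T. Rpl35 and Rpl9 differ from these copies at 1 coding base each, and Rps7 from Gm9493 at 3 of the 568 coding bases that aligned. A short read that does not cover such a base fits both places.

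Promoters were available for 65 of the 85 genes, as RefSeq windows (GRCm38.p6) of 250 bases before and 50 bases from the annotated start. CCGGAA, the core of the site bound by ETS factors, was searched on both strands and was present in 33 of the 65 windows (50.8%), against 15.2% of all 27025 genes with a window and 27.6% of those among them with at least 100 reads. CTTTCC, a pyrimidine run like those that open TOP messages, was searched on the strand of the gene alone and was present in 24 windows (36.9%), against 14.0% of all genes and 14.5% of those with at least 100 reads. GGGCGG, the GC box, searched on both strands, was present in 39 windows (60%), against 35.9% and 63.6%. CCGGAA on the opposite strand reads TTCCGG, which shares its first 4 bases with the end of CTTTCC, so that the motifs overlap in some windows. The lines below hold 40 bases before and 20 bases from the annotated start, with matches to CTTTCC, or to CCGGAA on either strand, in capitals. Rpsa, Rps10 and Rpl41 are shown as genes with high values in G4 against G3, Rps27 with its retrocopy Rps27rt, and Rpl3l as the muscle paralog.
Rpsa: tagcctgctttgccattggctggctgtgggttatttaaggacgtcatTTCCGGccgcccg
Rps10: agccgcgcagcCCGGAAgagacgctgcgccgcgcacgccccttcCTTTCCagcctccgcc
Rpl41: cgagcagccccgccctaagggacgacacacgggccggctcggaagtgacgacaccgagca
Rps27: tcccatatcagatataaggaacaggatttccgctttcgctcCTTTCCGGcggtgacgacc
Rps27rt: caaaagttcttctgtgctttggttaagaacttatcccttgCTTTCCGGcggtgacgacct
Rpl3l: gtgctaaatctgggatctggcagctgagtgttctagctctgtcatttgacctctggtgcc

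These stretches are chr9:120127726-120127785 (plus strand) for Rpsa, chr17:27635225-27635284 (minus) for Rps10, chr10:128549149-128549208 (minus) for Rpl41, chr3:90213629-90213688 (minus) for Rps27, chr9:114982720-114982779 (minus) for Rps27rt and chr17:24727786-24727845 (plus) for Rpl3l. From its annotated start, Rps27rt carried the same 38 bases as Rps27 from the second base of its own start, and the base before that stretch differed. In its longer window Rpl41 held CCGGAA, and Rpl3l held neither CCGGAA nor CTTTCC on the strands searched.

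The tables hold a mean of 24905255 scaled reads per library, the unit of all read numbers here, and values per library were not analysed here. The soleus label was checked by myosin heavy chains. Myh7, the slow form, stood at 10040 CPM (counts per 1e6 reads), Myh2 at 14976, Myh1 at 7501 and Myh4, the fastest form, at 1209. These are means over the 12 libraries. Myh4 was uneven, with rebuilt levels of 19194 reads per library in G4, 18192 in G3, 24222 in G2 and 58846 in G1. Its log2 fold change in G3 against G1 was -1.69, with a large SE of 1.77. Nox1 itself was near the limit of detection, with a total of 25.2 reads over the 12 libraries and rebuilt levels of 1.83, 1.65, 3.00 and 1.93 reads per library in G4, G3, G2 and G1. With counts this low in whole muscle, Nox1 gives no check of the knockout.

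The ribosomal protein genes together took 0.464% of all reads, and their copies another 0.529%. Of the 85 genes, 84 had a total of at least 100 reads and 74 at least 1000, and the counts below are over those 84. Per length of the annotated coding transcript, Rplp0 was highest at 346 CPM per kb. Rplp0 is the base of the ribosomal stalk, which recruits the elongation factors, and its partners Rplp1 and Rplp2 stood at 224 and 98.3 CPM per kb. Rps15 followed at 251 CPM per kb, Rpl4 at 249, Rpl8 at 246 and Rpl3l at 216. The median of the 84 genes was 46.7 CPM per kb. The lowest of them were Rpl35 at 0.540, Rps7 at 0.775 and Rpl36a at 0.835 CPM per kb, and below the minimum lay Rpl39l, a paralog known mainly from testis, with a total of 6.04 reads. Rps20 is understated on this scale, since its annotated coding transcript has 3706 bases.

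**Figure D1:**
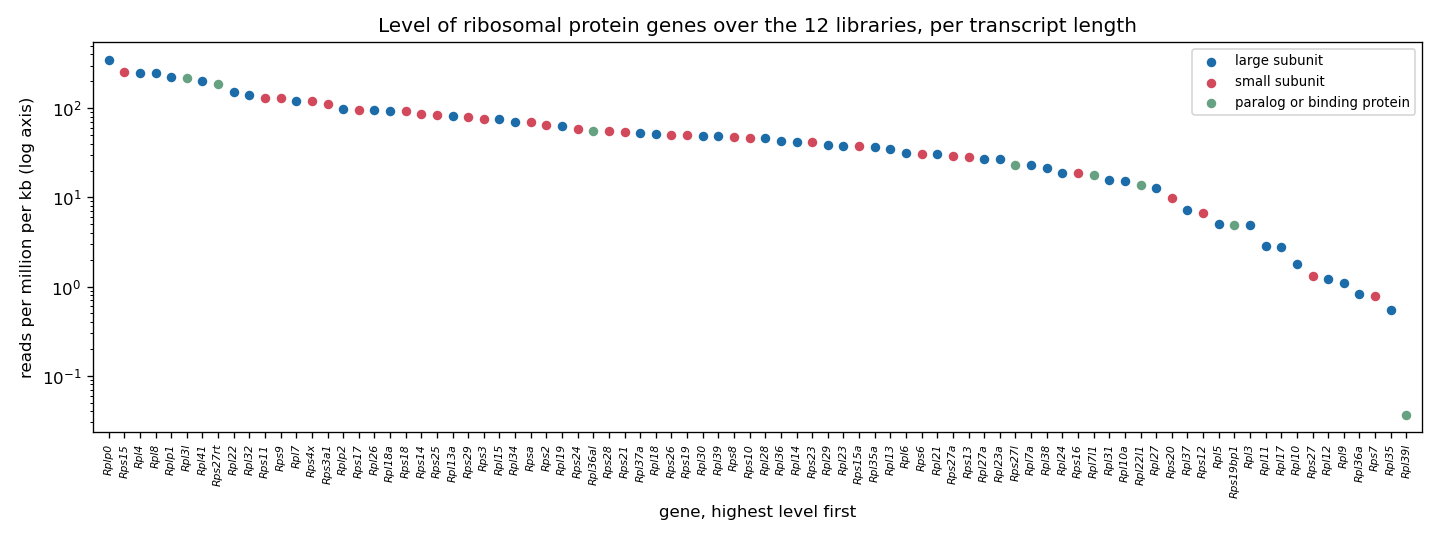
Level of 84 of the 85 genes over the 12 libraries, in CPM per kb of the annotated coding transcript on a log axis, ordered from highest to lowest and coloured by subunit. Rplp0 leads at 346, most genes lie near the median of 46.7, and a tail that holds Rpl35, Rps7 and Rpl36a falls below 1.

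The 3 lowest genes held little of their sequence family. A family is a gene with its copies, and the share of family reads placed on the gene itself had a median of 39.5%. The share was under 50% for 53 genes, under 10% for 15 and under 1% for 5, while 11 genes held at least 90%. Rpl35 held 0.456% of its family, with 153 reads in total against 30660 on Gm2000. Rpl9 held 0.541%, with 224 reads against 26884 on Rpl9-ps6. Rps27, a zinc finger protein of the small subunit, held 0.640%, with 137 reads against 20840 on Rps27rt. Rpl10 held 0.749%, with 426 reads against 43822 on Rpl10-ps3, and Rpl36a held 0.982%. At the other end genes such as Rpl8, Rpl3l, Rpl39l and Rps19bp1 had no such copy, and Rps15 held 97.6% of its family. The low counts of Rpl35, Rpl9, Rps27 and Rpl10 are therefore counts of reads placed on these loci, and their level of transcription is uncertain.

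In G4 against G3 the ribosomal protein genes were mostly higher in G4, each by a small amount. Of the 84 genes, 77 had a positive log2 fold change, against 50.9% of all 15494 genes with at least 100 reads. The median log2 fold change was 0.12, a fold of 1.09, against 0.00 for all those genes. No single member was called at an adjusted p under 0.05 in the authors' deposited table, which called 0% of its tested genes as rises and 0.0394% as falls. At an unadjusted p under 0.05, 13 of the 84 were higher in G4 and none lower, against 2.36% of all genes higher and 2.48% lower. The 46 core large-subunit genes had a median of 0.10 and 41 positive values, and the 31 core small-subunit genes a median of 0.13 and 29 positive values. The median implied SE of a single gene was 0.10, about as large as the median difference.

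**Figure D2:**
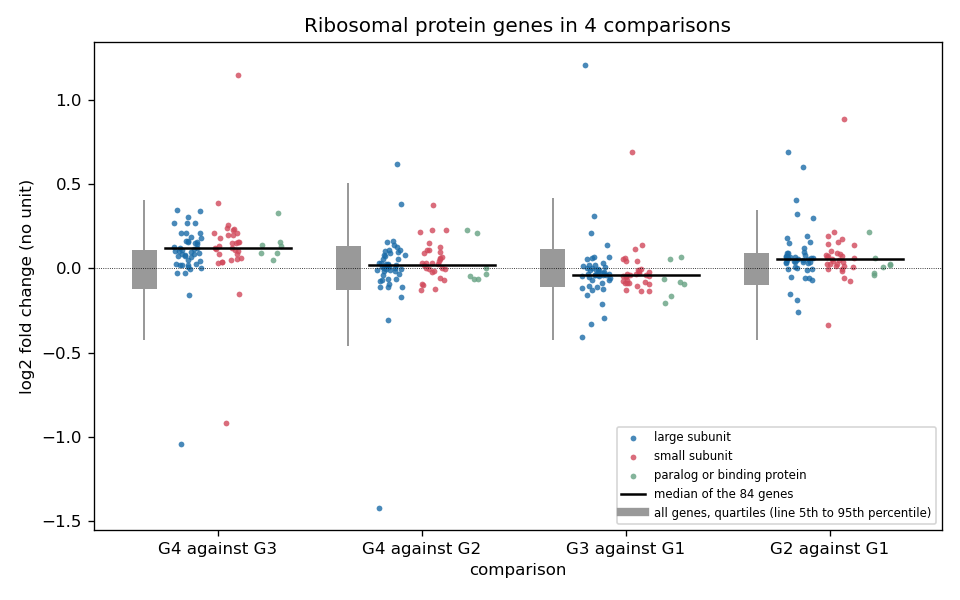
Log2 fold change of the 84 genes with at least 100 reads in the 4 comparisons, coloured by subunit, with their median as a black line. Grey bars give the quartiles of all 15494 genes and thin lines their 5th to 95th percentile. The medians from left to right are 0.12, 0.02, -0.04 and 0.05.

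Rpsa, the small-subunit protein that is also known as the laminin receptor precursor, had the smallest p-value of the set in G4 against G3. Its rebuilt levels were 3015 reads per library in G4, 2575 in G3, 2720 in G2 and 2732 in G1. G4 was the highest group and G3 the lowest. Its log2 fold change was 0.23 (SE 0.06), and the authors' deposited table gave an adjusted p of 0.290. Rpl41, a very short peptide of the large subunit that bridges to the small one, stood at 2442 reads per library in G4, 2023 in G3, 2220 in G2 and 2077 in G1. Its log2 fold change for G4 against G3 was 0.27 (SE 0.08; adjusted p = 0.564 in the authors' deposited table). Rpl36al, the autosomal paralog of the X-linked Rpl36a, had 830 reads per library in G4, 659 in G3, 716 in G2 and 737 in G1. Its log2 fold change was 0.33 (SE 0.11; adjusted p = 0.660 in the authors' deposited table). None of these 3 passed the adjusted threshold.

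Among genes with at least 1000 reads, Rpl31 had the highest value in G4 against G3, with a log2 fold change of 0.34 (SE 0.15), and Rpl36al and Rpl41 came next. The lowest were Rps6, Rpl24 and Rpl15. Rps6, the classic substrate of the S6 kinases, had a log2 fold change of -0.15 (SE 0.11), and Rpl24 and Rpl15 both had -0.03. Rpl31, Rps6, Rpl24 and Rpl15 held 7.70%, 15.6%, 8.87% and 44.2% of the reads of their families. Summed with their copies, they had 0.10, 0.07, 0.08 and 0.09 in the same order. The stalk genes were close together, Rplp0 at 0.12 (SE 0.06), Rplp1 at 0.15 (SE 0.08) and Rplp2 at 0.15 (SE 0.09).

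Transcript length moved with this comparison across the whole transcriptome. Over 15178 annotated genes, log2 fold change for G4 against G3 and transcript length had a Spearman rho of -0.25, a description over genes that share the same libraries. The ribosomal protein genes are short, with a median transcript of 831.5 bases against 2692 for all genes. The 707 protein-coding genes with a transcript under 1000 bases had a median log2 fold change of 0.08, with 523 positive values. After trends on length, GC content and total reads were taken out over all genes, the median of the 84 genes was 0.04. Of them 57 were then positive, against 50.4% of all genes. At an unadjusted p under 0.05, 3 members were then higher and 1 lower, in place of 13 and none, against 1.6% of all genes higher. The part of length in the difference was not tested beyond this.

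In G4 against G2 the genes showed little shift as a set. The median log2 fold change was 0.02, with 51 of 84 positive against 50.1% of all genes, and after removal of those trends it was -0.03. No member was called in the authors' deposited table, which called 1.02% of its tested genes as rises and 0.351% as falls, and 4 members, Rpl39l among them, had no adjusted p. At an unadjusted p under 0.05, 2 were higher (5.23% of all genes) and 1 lower (3.83%). After trend removal 1 was higher, against 4.82% of all genes, and 2 were lower. Rps2, a small-subunit protein at the mRNA entry channel, was closest to a call, with a log2 fold change of 0.23 (SE 0.07), for which the authors' deposited table gave an adjusted p of 0.0665. Rpsa had 0.15 (SE 0.06). Rps19bp1 and Rps19, the protein it binds, had 0.23 (SE 0.20) and 0.22 (SE 0.12). Among genes with at least 1000 reads, the lowest were Rps4x, the X-linked RPS4 gene, at -0.13 (SE 0.07), Rps15a at -0.12 and Rpl37a at -0.11. Summed with their copies, Rps4x had -0.08, Rps15a -0.01 and Rpl37a -0.03.

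In G3 against G1 the values leaned slightly the other way. The median log2 fold change was -0.04, with 24 of 84 positive against 50.1% of all genes, and it was -0.00 after trend removal. None was called in the authors' deposited table, where 0.169% of genes were called as rises and 0.0414% as falls. Rps2 was higher at an unadjusted p under 0.05, against 2.9% of all genes, and Rpl31 lower, against 2.73%. Rps2 had a log2 fold change of 0.14 (SE 0.07) and Rpl31 of -0.33 (SE 0.15), and the authors' deposited table gave both an adjusted p of 1. Rpl23a, which lies at the tunnel exit where the signal recognition particle docks, had 0.14 (SE 0.16), and Rpl22 had 0.07 (SE 0.10). Rpl3 had -0.30 (SE 0.23) and Rpl21 -0.21 (SE 0.13). Rpl23a, Rpl31 and Rpl3 held 10.5%, 7.70% and 10.8% of the reads of their families. Summed with their copies, they had -0.04, -0.10 and -0.10 in the same order.

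G2 against G1 had to be rebuilt from the other 3 comparisons, since the deposited list holds only genes at or below 0 and 18 of the 85 genes. For those 18 the rebuilt and deposited values differed by at most 1.0e-15. The median log2 fold change of the 84 genes was 0.05, with 66 positive against 49.7% of all genes, and was also 0.05 after trend removal. By a normal test with Benjamini-Hochberg adjustment over 15494 genes no member was called, against 0% of genes called as rises and 0.00645% as falls. At an unadjusted p under 0.05 only Rplp2 was higher (1.09% of all genes) and none was lower (1.26%). Rplp2, the acidic stalk protein, had rebuilt levels of 1090 reads per library in G4, 979 in G3, 1094 in G2 and 958 in G1. G4 and G2 were the high groups, and the log2 fold change for G2 against G1 was 0.19 (SE 0.09). Rpl23a had 0.30 (SE 0.16), Rpl22l1 0.22 (SE 0.16), Rpl3 -0.19 (SE 0.23) and Rps19 -0.07 (SE 0.12). Summed with their copies, they had 0.11, 0.04, -0.20 and -0.01 in the same order.

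Rps2 was the one member called when the comparisons that share no group were averaged. In the mean of G4 against G2 and G3 against G1 its log2 fold change was 0.18 (SE 0.05), a fold of 1.13, with a 95% interval of 0.09 to 0.28 and an adjusted p of 0.0174 by the normal test with Benjamini-Hochberg adjustment. In this mean 1.21% of all genes were called as rises and 0.439% as falls, so 1 of 84 members is near the background. The median over members was -0.01, with 39 of 84 positive against 49.2% of all genes. At an unadjusted p under 0.05, Rps2 and Rpl36a were higher and none was lower, against 5.56% and 4.18% of all genes. Rps2 stood at 1797 reads per library in G4, 1610 in G3, 1537 in G2 and 1462 in G1, so that G4 and G3 were both above G2 and G1. With its 61 copies, which hold the remainder of a family in which Rps2 itself has 73.7% of reads, the log2 fold change was 0.22 in G4 against G2 and 0.12 in G3 against G1. It was called as well after trend removal, with an adjusted p of 0.0395.

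The other mean, of G4 against G3 and G2 against G1, had a median log2 of 0.08 with 75 of 84 positive, against 49.7% of all genes. After trend removal the median was 0.05 with 70 positive, against 50.3% of all genes. No member was called by the normal test with Benjamini-Hochberg adjustment, where 0.00645% of all genes were called as rises and 0.0387% as falls. At an unadjusted p under 0.05, 16 members were higher and none lower, against 1.45% and 1.67% of all genes. After trend removal 5 were higher and none lower, against 1.12% of all genes higher. Rpl41 had the smallest p-value, with 0.18 (SE 0.06; adjusted p = 0.729), and Rps10 had 0.22 (SE 0.08). The difference between G4 against G2 and G3 against G1, the interaction, called no member, against 0% and 0.00645% of all genes. At an unadjusted p under 0.05, 3 members were higher and 1 lower (1.99% and 2.13% of all genes). After trend removal none was higher, against 1.59% of all genes, and 1 was lower. The median of the interaction was 0.05 with 62 positive, and it was -0.03 after trend removal, so its direction depends on that step.

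**Figure D3:**
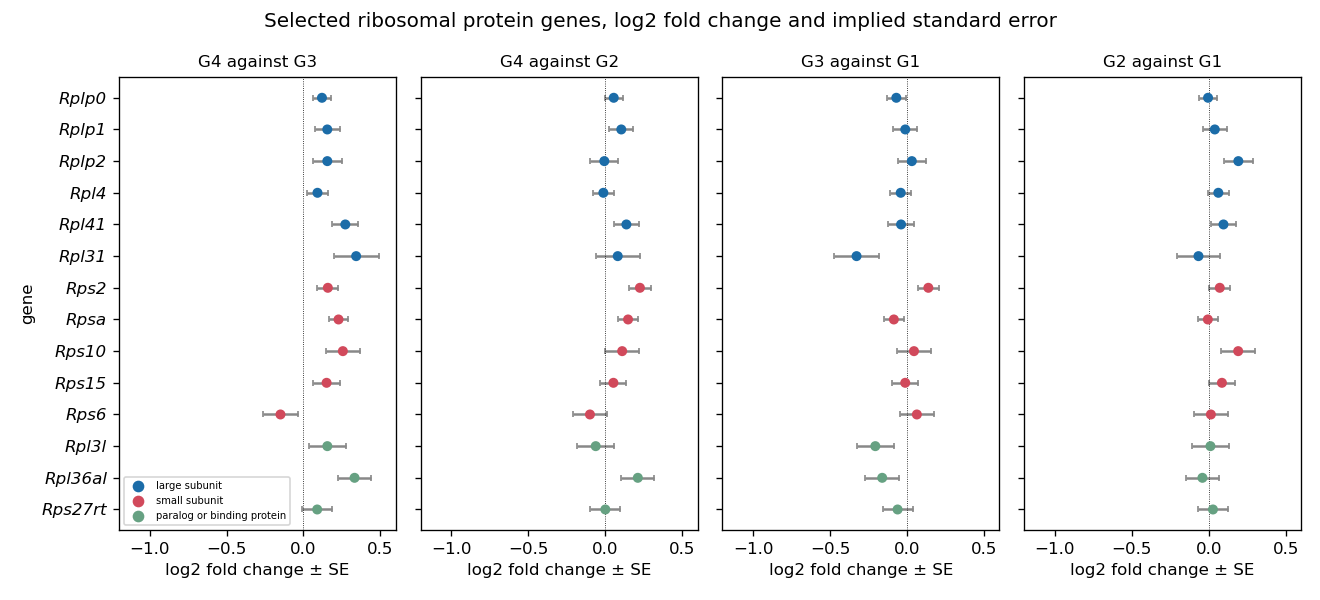
Log2 fold change of 14 genes in the 4 comparisons, with bars of 1 implied SE and colours by subunit. Values are for each gene alone, without its copies. In G4 against G3 every gene shown but Rps6 lies above 0, and Rps2 and Rps10 lie above 0 in all 4 panels.

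The rebuilt group levels hold the same information gene by gene. G4 was the highest group for 48 of the 84 genes and G2 for 26, while G3 was the lowest for 56 and G1 for 19. Summed over the 84 genes the levels were 119928 reads per library in G4, 110210 in G3, 117829 in G2 and 114094 in G1. In whole muscle, a cell type that is less abundant and a cell type with less RNA per cell cannot be told apart.

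The largest fold changes of the set belonged to genes that hold little of their family. For Rpl35 the log2 fold change was -1.04 (SE 0.65) in G4 against G3 and -1.42 (SE 0.64) in G4 against G2, with rebuilt levels of 6.87 reads per library in G4, 14.1 in G3, 18.4 in G2 and 11.4 in G1. Summed with its 5 copies, the family had 2928 reads per library in G4, 2622 in G3, 2818 in G2 and 2775 in G1. The family log2 fold changes were 0.16 in G4 against G3 and 0.06 in G4 against G2. Rps27 had 1.15 (SE 0.65) in G4 against G3 on its own and 0.08 with its copies. Rps7, a small-subunit protein that also binds MDM2, had -0.92 (SE 0.55) on its own and 0.02 with its copies. Rpl36a had 1.21 (SE 0.62) in G3 against G1 on its own and 0.05 with its copies.

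The spread followed the share. In G4 against G3, the 15 genes with under 10% of their family had an SD of 0.52 across genes, the 38 with 10 to 50% an SD of 0.09 and the 31 with at least 50% an SD of 0.07. The median implied SE in those 3 classes was 0.30, 0.10 and 0.09. Of the 31 genes that hold at least 50% of their family, all 31, Rps27rt on its own among them, were positive in G4 against G3, with values from 0.03 to 0.33.

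Summed into 83 families, with Rps27rt counted in that of Rps27, the values drew together. The SD across families was 0.05 in G4 against G3, against 0.23 for the single genes, and 0.06 against 0.20 in G4 against G2. It was 0.05 against 0.19 in G3 against G1 and 0.05 against 0.17 in G2 against G1. In G4 against G3 all 83 family values were above 0, from 0.01 for Rps27l to 0.27 for Rpl36al, with a median of 0.11. The other medians were 0.02 with 52 positive families (G4 against G2), -0.04 with 16 (G3 against G1) and 0.06 with 76 (G2 against G1). These family values are sums of estimates and carry no test, and the families share the same libraries. The sum over all families was 256610 reads per library in G4, 236878 in G3, 252030 in G2 and 243442 in G1.

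**Figure D4:**
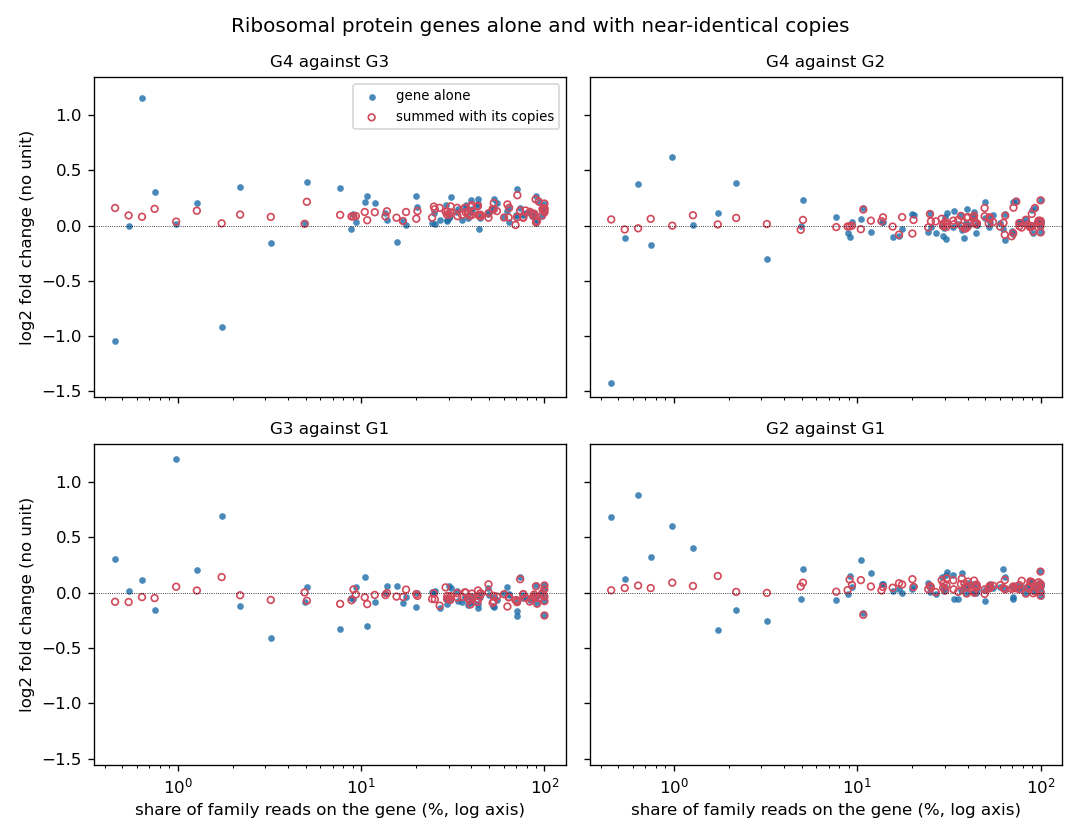
Log2 fold change of 83 ribosomal protein genes against the share of family reads placed on the gene (percent, log axis), for the gene alone (filled) and summed with its near-identical copies (open). Values of genes with a share under 10% scatter widely, with an SD of 0.52 in G4 against G3, and the family values lie in a band with an SD of 0.05.

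None of the 6 paralogs with at least 100 reads was called in any comparison. Rpl3l, the form of Rpl3 found in heart and skeletal muscle, has no near-identical copy and had rebuilt levels of 7447 reads per library in G4, 6689 in G3, 7773 in G2 and 7715 in G1. G3 was the lowest group, with a log2 fold change of -0.21 (SE 0.12) in G3 against G1 and 0.15 (SE 0.12) in G4 against G3. Rpl3 itself had 177, 147, 158 and 180 reads per library in G4, G3, G2 and G1. Of the reads on both genes 97.8% were on Rpl3l, and with the copies of Rpl3, chiefly Rpl3-ps1 with 16373 reads, added to Rpl3 the share was 82.9%. Rps27rt, whose coding sequence equals that of Rps27, had 1772 reads per library in G4, 1666 in G3, 1771 in G2 and 1738 in G1, with 0.09 (SE 0.10) in G4 against G3. Rps27l, a paralog known as a p53 target, had 0.09 (SE 0.14) in that comparison, Rpl22l1, the paralog of Rpl22, 0.13 (SE 0.16), and Rpl7l1 0.05 (SE 0.10).

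Genes that work beside the ribosomal proteins were read from lists. Mitochondrial ribosomal proteins, which build the separate ribosome inside mitochondria, had 78 measured genes and medians of 0.06 (G4 against G3), 0.05 (G4 against G2), -0.05 (G3 against G1) and -0.04 (G2 against G1). None of them was called. Fusion genes and Rack1 held 4 measured genes of 5 listed, with medians of 0.13, 0.08, -0.06 and 0.04 in the same order. No gene of this list was called. Fau, a fusion with a small-subunit protein, had 0.15 in G4 against G3 and 0.11 in G4 against G2, and Rps27a, the ubiquitin fusion that belongs to the set described here, had 0.04 and -0.09.

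Translation factors with TOP messages, 20 of 20 measured, had medians of 0.02 (G4 against G3), 0.00 (G4 against G2), 0.01 (G3 against G1) and 0.03 (G2 against G1). TOP host genes of small nucleolar RNAs, 15 of 15 measured, had 0.10, 0.10, 0.02 and 0.06. Ribosome biogenesis factors, 37 of 38 measured, had 0.08, 0.05, -0.02 and 0.04, and the RNA polymerase I machinery, 15 of 18 measured, had 0.01, -0.05, 0.02 and 0.03. No gene of these 4 lists was called in any of the 4 comparisons. The mTORC1 and S6 kinase pathway, 26 of 26 measured, had 0.05, -0.02, -0.03 and 0.01. Its single call was Rragd, a Rag GTPase that carries amino acid signals to mTORC1, which fell by 0.35 on the log2 scale in G3 against G1 (adjusted p = 0.0454 in the authors' deposited table). That table called 0.0414% of all tested genes as falls. In G4 against G2 Rragd had -0.23 and was not called (adjusted p = 0.275 in the authors' deposited table).

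Markers of fibre types and other cells had different summed levels in the groups, and 3 of them were called, all as rises. Lum, 1 of 7 fibroblast markers, was called in G3 against G1, where 0.169% of all tested genes were called as rises. Eng, 1 of 12 endothelial markers, and Fabp4, 1 of 9 genes on the adipocyte list, were called in G4 against G2. There 1.02% of all tested genes were called as rises. The summed level of 9 slow fibre markers was 666860 reads per library in G4, 617140 in G3, 785273 in G2 and 616010 in G1. All 9 were positive in G2 against G1 (median 0.32) and all 9 in G4 against G3 (median 0.11). In G4 against G2, 0 of the 9 were positive (median -0.20), and in G3 against G1, 4 were (median -0.04). The 11 fast fibre markers summed to 1136600 in G4, 1089830 in G3, 1240520 in G2 and 1325270 in G1. The 12 macrophage markers summed to 1820 in G4, 2213 in G3, 1826 in G2 and 2326 in G1, with a median of -0.25 in G4 against G3 and -0.39 in G2 against G1. The 5 erythroid markers summed to 3687, 4234, 2788 and 4463 in G4, G3, G2 and G1. The 9 adipocyte markers summed to 49470, 42894, 45733 and 37302, but 87.5% of these reads were on Car3, which muscle fibres also express. The median log2 of all 9 was 0.20 (G4 against G3), 0.37 (G4 against G2), -0.20 (G3 against G1) and -0.60 (G2 against G1). Without Car3 the other 8 summed to 6042, 5039, 4791 and 6106. Most reads of those 8 were on Fabp4, with a total of 53552 over the 12 libraries against 5458.5 for Cfd, the next. The sum without Car3 therefore mainly follows Fabp4. The 12 endothelial markers summed to 20045, 18641, 16948 and 18027, and the 7 fibroblast markers to 16359, 19581, 16137 and 17086. All 12 endothelial, 12 macrophage and 5 erythroid markers were present, and 1 of 9 lymphocyte markers reached 100 reads. The part of these cell types in the ribosomal protein values was not tested.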

How the data were processed

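Stranded mRNA libraries from the soleus of 12 mice were made with a KAPA kit, per the labels' protocols. The submitters' processing notes name Bowtie2 2.1.0, RSEM 1.2.15 and edgeR, with builds mm10 and GRCm38, without their order. The authors deposited 4 comparisons holding, per the file headers, a total signal per gene summed over libraries, a p-value, an adjusted p-value (kept blank where blank), a signed fold-change score and a log2 fold change. Totals are not whole numbers and cover all libraries together, so no count test was run and depth per library is unknown. RSEM divides shared reads by expectation, which makes genes with copies uncertain.

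Implied standard errors are log2 divided by the normal quantile of the p-value. G2 against G1 was rebuilt by adding the log2 values of G4 against G3 and of G3 against G1 and subtracting that of G4 against G2. The rebuilding was tested on simulated data. For the rebuilt G2 against G1, the interaction and the means, adjustment ran over 15494 genes with a total of at least 100. After trend removal it ran over 15178 genes. Calls in G4 against G3, G4 against G2 and G3 against G1 used the deposited adjusted p. An adjusted p under 0.05 is a call. Copies were found with BLAST 2.17.0 (plus strand, at least 150 aligned bases, best match), and trends removed with splines of 4 degrees of freedom (patsy 1.0.2, Python 3.11.15). GENCODE M21 matched 28063 of 28997 symbols and all 85 members. Genes, lists, and the rule for named genes (calls, the 3 highest, 3 lowest and 3 smallest p-values per comparison, stalk genes, paralogs, 3 highest levels) were chosen with earlier results of these data known. Rpl35, Rpl9, Rps27, Rps7, Rpl10, Rpl12, Rpl36a and Rpl8 were also named for their copies after values were seen. The labels name separate mice, and no batch. P-values set each difference against a spread estimated from these samples only. Some results are not reported here.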

Additional observations from a re-analysis of the deposited data

How the results depend on the processing

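Of 92 alternative values for the medians and counts of calls, 91 stayed within 1 implied SE of a single gene (medians) or 1.5 times (counts). The exception was the call of Rps2 in the mean of G4 against G2 and G3 against G1, where also requiring a fold change of at least 1.5 left 0 members. The SE used as the limit is larger than most of these medians, so a median could change sign and still count among the 91. With the trend on GC content, length and total removed, the median of G4 against G2 went from 0.02 to -0.03. That of the interaction went from 0.05 to -0.03. The count of 91 is therefore no measure of a stable direction. Medians were recomputed with all members, with totals of at least 1000, without paralogs, recentred on all genes or on genes of at least 5 CPM, as a weighted mean and, chosen after seeing the data, over families and over genes with at least 50% of their family. In G4 against G3 they ran from 0.11 to 0.12 under these and were 0.04 with the trend on GC content, length and total removed. Removal of that trend moved 10 of 132 values of single genes by more than 1 implied SE, 9 of them in G4 against G3, and Rplp0 in G4 against G2. Positive values in G4 against G3 then numbered 57 of 84, against 77 without that step, so the sign of some single genes depends on it. Rps4x went from 0.03 to -0.05. Rps19, whose value without that step was close to the median of the set, went from 0.10 to -0.02. No paired analysis was possible because no values for single mice were at hand. For the same reason leaving out each mouse and another normalization were not run.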
